A study of Mus musculus with 12 samples.

Results

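The acute phase proteins are plasma proteins that the liver makes in larger amounts after injury, infection or other inflammation. The 10 genes described here encode the mouse serum amyloid A proteins (Saa1, Saa2, Saa3 and Saa4), the orosomucoids or alpha-1-acid glycoproteins (Orm1, Orm2 and Orm3), the iron-siderophore carrier lipocalin 2 (Lcn2), haptoglobin (Hp) and C-reactive protein (Crp). A gene was measured by a probe set listed with that gene alone, and of several probe sets the one with the highest mean over the arrays was used. By this rule 9 of the 10 genes had a probe set, 1 each, among 22180 genes with one, and all 9 passed the filter on dim probe sets that left 14031 genes for testing. Values are log2 of the array intensity, and differences are given with standard errors from limma, a linear model fitted over all tested genes. Saa1 had none, because its only probe set is listed with Saa2 as well, and it is described through that shared probe set.

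Liver RNA came from male C57BL/6 mice that were Pparβ/δ-/- (called null here) or wild-type. By the labels the mice were 8 to 10 weeks old at the start, before the weeks of diet. After a week of acclimation on a liquid control diet, mice of both genotypes received a liquid diet with 4% (v/v) ethanol or the control diet for 16 weeks. The groups were null ethanol, null control, wild-type ethanol and wild-type control, with 3 Affymetrix arrays each and 12 in all. The feeding study had 10 mice per group. Whether every array holds a different mouse is not stated, and p-values and errors then reflect only the variation among these samples, which may be technical. The sources used here do not give how the null allele was made or whether the wild-type mice were littermates. Ppard, the gene of the receptor, had log2 intensities of 7.69 to 8.06 on the 6 null arrays and 7.64 to 8.01 on the 6 wild-type arrays; the sources used here do not place its probes relative to the disrupted part, so it checks no label. The 10 hepatocyte markers, Alb among them, all passed the filter, with a list mean of 12.84 to 13.01 log2 units on every array.

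In the acute phase response, cytokines such as interleukin 6 and interleukin 1 act on hepatocyte receptors, and STAT3, NF-kB and C/EBP transcription factors then raise transcription of the acute phase genes. In mice Saa1, Saa2, Orm1, Orm2, Hp and Lcn2 are strongly inducible, Saa4 is expressed constitutively, and Saa3 is made by macrophages and other cells as well as hepatocytes. Mouse Crp, unlike human CRP, responds only modestly. PPARβ/δ is a nuclear receptor for fatty acids with described roles in lipid metabolism and in restraining inflammatory signalling.

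The Saa promoters are shown because the results turn on the Saa genes and because Saa1 and Saa2 are so alike that one probe set is listed with both. The sequences are the 250 bases before each gene start in RefSeq's annotation of GRCm38.p6, 5′ to 3′ on the gene's own strand, at chr7:46742981-46743230 (minus strand) for Saa1, chr7:46751583-46751832 (plus strand) for Saa2, chr7:46715677-46715926 (minus strand) for Saa3 and chr7:46732604-46732853 (minus strand) for Saa4. Capitals mark matches to the C/EBP motif TTNNGNAA, or to the NF-kB motif of GGG and CC with 5 bases of any kind between them, on either strand.
Saa1: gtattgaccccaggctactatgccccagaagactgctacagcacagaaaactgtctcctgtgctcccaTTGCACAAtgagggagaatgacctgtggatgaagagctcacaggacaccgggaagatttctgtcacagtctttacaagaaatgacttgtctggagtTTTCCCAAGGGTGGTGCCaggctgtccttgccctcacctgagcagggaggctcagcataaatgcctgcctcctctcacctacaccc
Saa2: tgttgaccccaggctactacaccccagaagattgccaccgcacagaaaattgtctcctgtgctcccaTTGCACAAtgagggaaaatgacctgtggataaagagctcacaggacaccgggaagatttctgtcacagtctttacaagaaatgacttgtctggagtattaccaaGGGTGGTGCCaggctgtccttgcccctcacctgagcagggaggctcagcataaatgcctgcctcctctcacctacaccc
Saa3: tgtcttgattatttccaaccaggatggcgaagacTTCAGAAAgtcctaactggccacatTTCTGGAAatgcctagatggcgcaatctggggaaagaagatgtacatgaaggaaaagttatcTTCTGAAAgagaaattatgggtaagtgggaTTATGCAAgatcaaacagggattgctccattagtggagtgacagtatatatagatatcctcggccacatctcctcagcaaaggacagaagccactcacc
Saa4: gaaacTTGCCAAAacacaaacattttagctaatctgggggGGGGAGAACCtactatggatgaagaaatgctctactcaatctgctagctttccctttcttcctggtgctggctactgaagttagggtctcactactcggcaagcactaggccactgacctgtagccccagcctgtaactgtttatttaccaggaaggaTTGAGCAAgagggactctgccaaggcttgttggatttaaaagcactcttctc

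The Saa1 and Saa2 windows were identical at 238 of 251 alignment columns (94.8%), while Saa2 matched Saa3 at 48% and Saa4 at 44.9% of columns. Those 2 figures are no sign of family likeness, as Saa2 matched the windows of Orm2, Orm3, Lcn2 and Crp at 46.3% to 52.9%. Saa1 held C/EBP matches at 182 to 175 and 86 to 79 bases before the start, the second directly before an NF-kB match at 78 to 69. Saa2 held the first C/EBP match, at 183 to 176, and the NF-kB match, at 79 to 70, but no match at the place of Saa1's second C/EBP site. Saa3 held 4 C/EBP matches, and Saa4 held 2 C/EBP matches and 1 NF-kB match. Of the 10 genes, 8 had a window, and the C/EBP motif was in each of these, against 36.9% of all 32841 windows, while the NF-kB motif was in 5 of the 8, against 45.8% of all windows. The STAT3 motif TTCNNNGAA, in 7.02% of all windows, was in none of the 8. These are matches of letters and not sites of binding. Orm2 and Orm3 windows were identical at 218 of 255 columns (85.5%).

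The differences that passed a test were those of Saa2 and Saa4 between the genotypes, on the control diet and averaged over the diets. Saa2, a major inducible amyloid A that rides on high-density lipoprotein, had log2 intensities of 7.66, 6.62 and 7.04 on the null control arrays and 8.68, 10.19 and 11.11 on the wild-type control arrays. All null control arrays lay below all wild-type control arrays, with means of 7.11 ± 0.52 and 10.00 ± 1.23 (SD, n = 3 each). The log2 difference, null minus wild-type, was -2.89 ± 0.59 (SE, 95% interval -4.17 to -1.61), which is 7.40-fold lower and passed limma's test with an adjusted p = 0.0167. The probe set listed with both Saa1 and Saa2, described further on, differed by much less (-0.01 ± 0.76). Saa4, the constitutive amyloid A of high-density lipoprotein, had 11.81, 10.60 and 11.11 on the null control arrays and 12.20, 12.45 and 12.58 on the wild-type control arrays. These did not overlap either, with means of 11.17 ± 0.61 in null and 12.41 ± 0.19 in wild-type livers (SD, n = 3 each). Saa4 was 2.36-fold lower in null livers (-1.24 ± 0.25, interval -1.79 to -0.69, limma adjusted p = 0.0169).

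**Figure D1:**
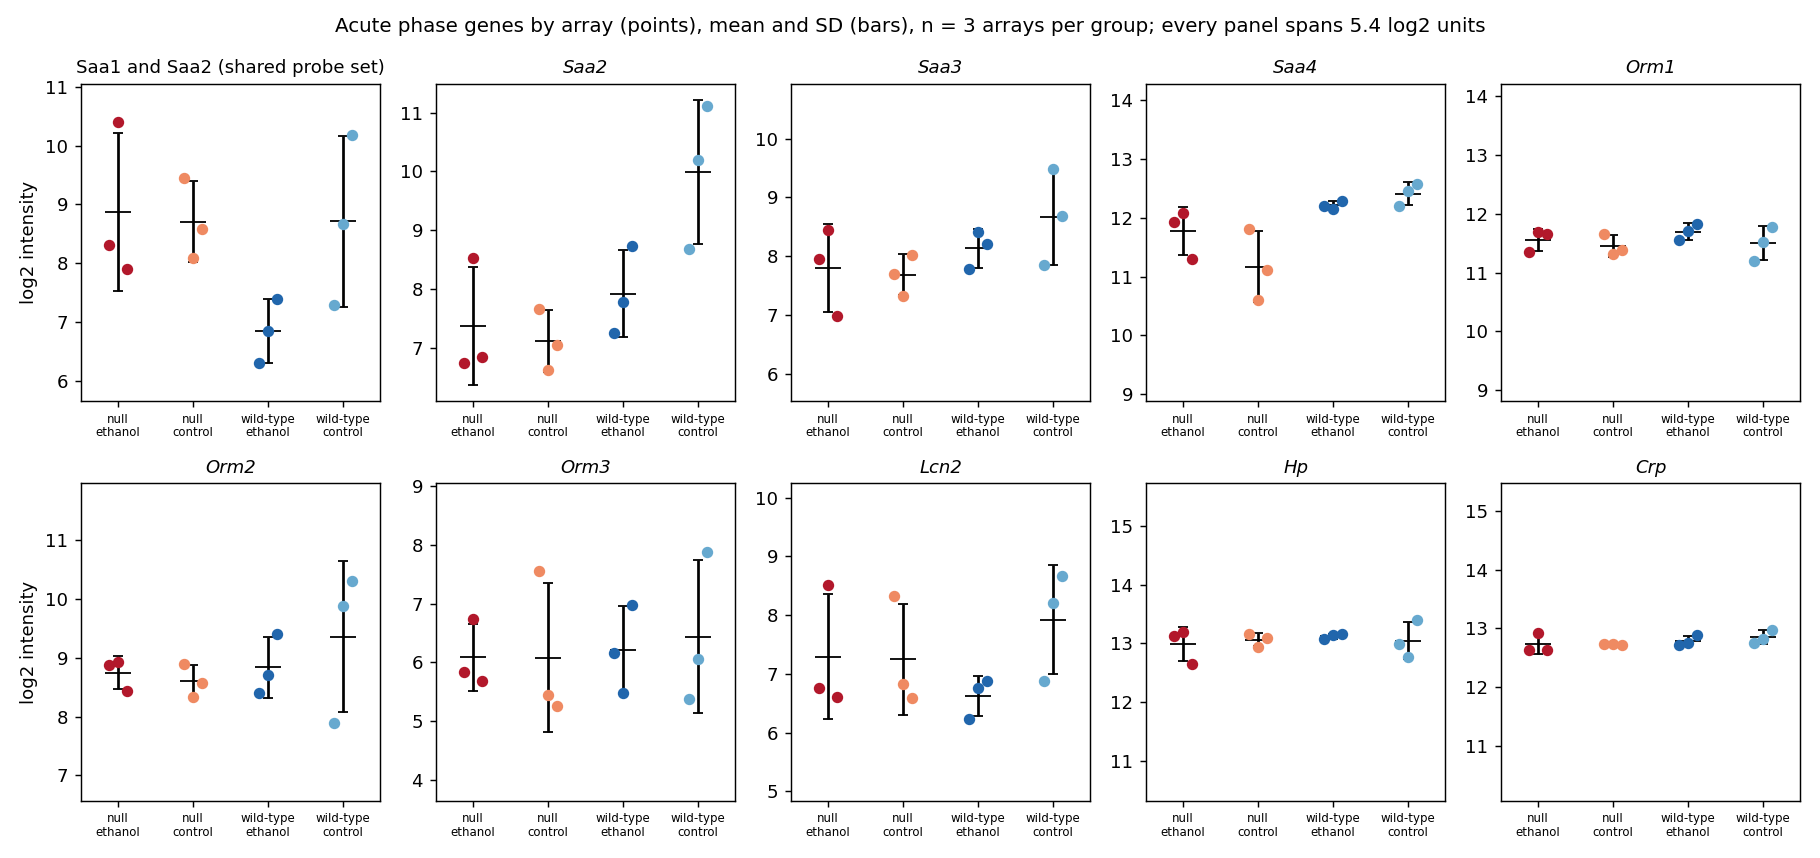
Log2 intensity of each acute phase gene on each array (points, 3 per group), with the group mean and SD (black bars), for null ethanol, null control, wild-type ethanol and wild-type control from left to right; every panel spans the same number of log2 units. The Saa2 and Saa4 points of null control livers lie wholly below those of wild-type control livers, while Hp and Crp points lie within narrow bands.

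Saa3, the amyloid A of macrophages and inflamed tissue, had 7.70, 7.32 and 8.02 on the null control arrays and 7.85, 9.48 and 8.69 on the wild-type control arrays, so 1 null array lay among the wild-type values. Its difference of -0.99 ± 0.39 did not pass (limma adjusted p = 0.158). Orm2, an inducible orosomucoid that binds basic drugs and lipids in plasma, had 8.89, 8.33 and 8.57 on the null control arrays and 7.89, 9.88 and 10.30 on the wild-type control arrays, with a difference of -0.76 ± 0.47 (limma adjusted p = 0.367). Wild-type control array 1 was the lowest of the 12 arrays for Orm2 and arrays 2 and 3 the highest, and without array 1 the difference was -1.49 and passed (limma adjusted p = 0.0158). Lcn2, which starves bacteria of iron, had 8.33, 6.83 and 6.59 on the null control arrays and 6.89, 8.20 and 8.68 on the wild-type control arrays, which overlapped (-0.67 ± 0.56, limma adjusted p = 0.515). Crp, an opsonin of the pentraxin family, had 12.74, 12.74 and 12.71 on the null control arrays and 12.75, 12.83 and 12.98 on the wild-type control arrays. These did not overlap, but the difference of -0.12 ± 0.10 did not pass (limma adjusted p = 0.508). Orm1, the other main inducible orosomucoid of liver, differed by -0.04 ± 0.15, Hp, which binds free haemoglobin, by 0.01 ± 0.16, and Orm3 by -0.36 ± 0.66, and none of these passed.

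In this comparison 2 of the 9 genes were called lower and 0 higher, where called means a limma adjusted p under 0.05, against 1.89% of all tested genes called lower and 5.1% called in either direction. The difference was negative for 8 of the 9, with a median of -0.67, against a median of 0.01 over all tested genes. Groups failed to overlap, with null lower, for Saa2, Saa4 and Crp (3 of 9), against 10% of all tested genes. Both calls rested on single arrays: without wild-type control array 3 the Saa2 difference was -2.33 (limma adjusted p = 0.0611) and that of Saa4 was -1.16 (0.0612), and without null control array 2 they were -2.64 (0.0814) and -0.96 (0.0711), so that 0 of the 9 passed either time. With only these 2 groups in the fit Saa2 passed and Saa4 did not (limma adjusted p = 0.0626).

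On the ethanol diet no member passed the test between the genotypes. Saa2 had 6.74, 8.53 and 6.84 on the null ethanol arrays and 7.25, 7.78 and 8.73 on the wild-type ethanol arrays, which overlapped, with means of 7.37 ± 1.0 and 7.92 ± 0.75 (SD, n = 3 each). The difference of -0.55 ± 0.59 had an interval from -1.83 to 0.72 and did not pass (limma adjusted p = 0.703). Saa4 had 11.93, 12.09 and 11.31 on the null ethanol arrays and 12.20, 12.15 and 12.29 on the wild-type ethanol arrays, all null arrays again being lower, with a difference of -0.44 ± 0.25 that did not pass (limma adjusted p = 0.428). Saa3 differed by -0.34 ± 0.39 and Lcn2 by 0.67 ± 0.56, the only member with a positive difference. The remaining 5 members had differences between -0.14 and -0.06. With limma, 0 of the 9 members were called, and 0 had an unadjusted p under 0.05, against 1.79% of all tested genes called and 16.2% with an unadjusted p under 0.05. The groups failed to overlap for 1 of the 9, Saa4, with null lower, against 14.4% of all tested genes.

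Averaged over the diets, Saa2 was 3.30-fold lower in null livers (-1.72 ± 0.42, interval -2.62 to -0.82, limma adjusted p = 0.0267), whereas the probe set shared with Saa1 lay the other way (1.01 ± 0.54, not called). Averaged likewise, Saa4 was 1.79-fold lower (-0.84 ± 0.18, interval -1.23 to -0.45, limma adjusted p = 0.0138). The 6 null arrays of Saa4 lay at 10.60 to 12.09 and the 6 wild-type arrays at 12.15 to 12.58, without overlap, while those of Saa2 overlapped. These 2 of 9 were called lower and 0 higher, against 3.98% of all tested genes called lower and 7% called in either direction. Null arrays failed to overlap with, and lay below, wild-type arrays for 1 of the 9 members, against 2.11% of tested genes. Saa4 passed with any 1 of the 12 arrays left out (limma adjusted p from 0.00160 to 0.0374), and Saa2 passed in 6 of these 12 fits (0.00763 to 0.0708). Saa2 failed without wild-type control array 3, wild-type ethanol array 2 or 3, null control array 2, or null ethanol array 1 or 3. Saa3 averaged -0.66 ± 0.28 (limma adjusted p = 0.182), Orm2 -0.43 ± 0.33 and Lcn2 -0.003 ± 0.40.

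**Figure D2:**
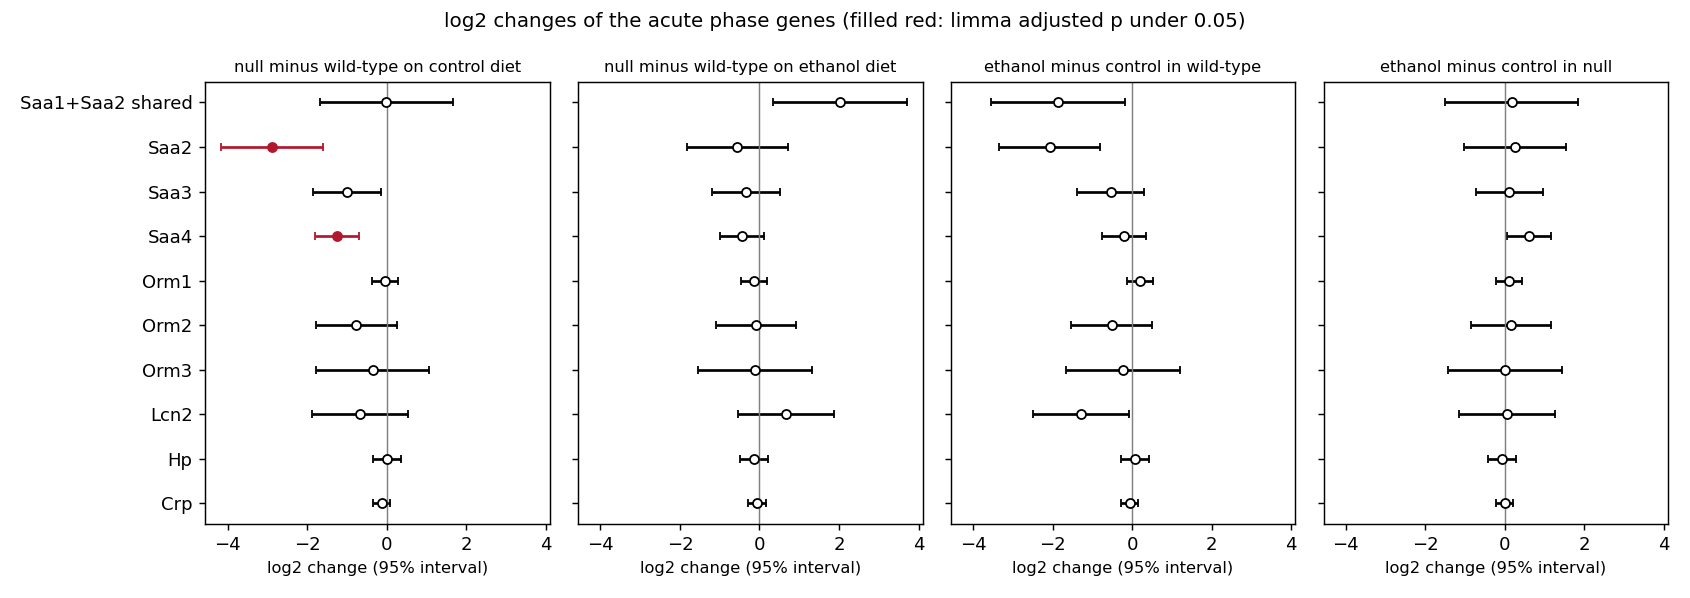
Log2 changes (points) with 95% intervals (bars) of the acute phase genes and of the probe set shared by Saa1 and Saa2, for the genotype difference on each diet and the ethanol difference in each genotype; filled red points had a limma adjusted p under 0.05. Saa2 and Saa4 passed for null against wild-type on the control diet, at -2.89 and -1.24, and no other interval shown belongs to a called gene.

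Ethanol lowered or raised none of the 9 genes enough to pass in either genotype. The largest difference was that of Saa2 in wild-type livers, with 7.25, 7.78 and 8.73 on the ethanol arrays and 8.68, 10.19 and 11.11 on the control arrays. The groups overlapped by 1 array, and the difference was -2.08 ± 0.59 (interval -3.35 to -0.80, 4.22-fold, unadjusted p = 0.00385 and adjusted p = 0.158 with limma). Lcn2 in wild-type livers had 6.24, 6.77 and 6.88 with ethanol and 6.89, 8.20 and 8.68 on control diet, all ethanol arrays lying lower, the highest of them only just below the lowest control array. Its difference was -1.29 ± 0.56 (interval -2.50 to -0.08, limma adjusted p = 0.313). Saa3 differed by -0.54 ± 0.39, Orm2 by -0.52 ± 0.47, Orm3 by -0.23 ± 0.66, Saa4 by -0.20 ± 0.25, Crp by -0.06 ± 0.10, Hp by 0.08 ± 0.16 and Orm1 by 0.20 ± 0.15. Of the 9 members 7 were negative, with a median of -0.23, against -0.01 over all tested genes. With limma 0 were called, against 0.0927% of all tested genes, and 2, both lower, had an unadjusted p under 0.05, against 6.75% of tested genes with such a p and a lower value. Groups failed to overlap, with ethanol lower, for 1 of the 9, against 8.61% of tested genes.

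In null livers Saa4 had the largest ethanol difference. It had 11.93, 12.09 and 11.31 with ethanol and 11.81, 10.60 and 11.11 on control diet, with overlap, and a difference of 0.61 ± 0.25 (interval 0.06 to 1.16, limma adjusted p = 0.377). The other members had differences within their standard errors, among them Saa2 at 0.26 ± 0.59, Orm2 at 0.15 ± 0.47, Saa3 at 0.11 ± 0.39, Lcn2 at 0.05 ± 0.56 and Hp at -0.07 ± 0.16. With limma 0 of the 9 were called, against 0.00713% of all tested genes, and 1, Saa4, had an unadjusted p under 0.05 with a higher value, against 3.81% of tested genes.

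The test of whether ethanol acted differently in the genotypes also called 0 of the 9 with limma, against 0.0143% of tested genes, and 2 members with a positive value had an unadjusted p under 0.05, against 4.78% of tested genes. The ethanol difference in null minus that in wild-type livers was 2.34 ± 0.84 for Saa2 (interval 0.53 to 4.14, limma adjusted p = 0.247), 0.80 ± 0.36 for Saa4 (adjusted p = 0.317) and 1.34 ± 0.79 for Lcn2 (adjusted p = 0.432). The call for Saa2 and Saa4 on the control diet and its lack on the ethanol diet is therefore not a difference between diets that passed a test. Ethanol averaged over the genotypes gave -0.91 ± 0.42 for Saa2 (limma adjusted p = 0.410), and again 0 of 9 were called, against 0.0143% of tested genes. Of the 9 members 1, with a lower value, had an unadjusted p under 0.05, against 8.32% of tested genes. These comparisons share arrays, so they are not independent of each other.

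The probe set listed with both Saa1 and Saa2 had a genotype difference unlike that of the Saa2 probe set. It had 8.31, 10.40 and 7.90 on the null ethanol arrays, 9.45, 8.08 and 8.58 on the null control arrays, 6.31, 6.84 and 7.38 on the wild-type ethanol arrays and 7.28, 8.67 and 10.19 on the wild-type control arrays. Null ethanol arrays thus lay wholly above wild-type ethanol arrays, by 2.03 ± 0.76 (interval 0.35 to 3.71), which did not pass in a test apart with 6899 other probe sets of several genes or none (limma adjusted p = 0.316). On the control diet the genotypes differed by -0.01 ± 0.76 (interval -1.69 to 1.67), and averaged over diets the difference was 1.01 ± 0.54, opposite in sign to that of the Saa2 probe set and not called (limma adjusted p = 0.429). With ethanol it lay at -1.87 ± 0.76 relative to control in wild-type livers (limma adjusted p = 0.326) and at 0.17 ± 0.76 in null livers.

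Within a genotype arrays high in the shared probe set were high in the Saa2 probe set too, while the offset between the probe sets differed by genotype. Pearson's r between them was 0.978 over the 6 null arrays and 0.982 over the 6 wild-type arrays (Spearman's rho 0.829 and 1), given as a description of probe sets read on the same arrays, across both diets. Without the 2 arrays of each genotype farthest from the median of the shared probe set, r was 0.582 over the other 4 null arrays and 0.986 over the other 4 wild-type arrays, so the null relation rests on the arrays left out. The log2 value of the Saa2 probe set minus that of the shared probe set was -1.88 to -1.06 on the 6 null arrays and 0.93 to 1.52 on the 6 wild-type arrays, without overlap. The means were -1.55 ± 0.29 in null and 1.18 ± 0.27 in wild-type livers (SD, n = 6 each), and by diet they were -1.50 with ethanol and -1.60 on control diet in null livers, and 1.08 with ethanol and 1.28 on control diet in wild-type livers. The genotype difference was -2.73, and it ran from -2.83 to -2.66 with any 1 array left out. This comparison was added after the values were seen and is a description, with no test. Only a difference between the probe sets is measured here: the sources used here give neither probe positions nor base differences between the mice at the probes, so a change in Saa1, a change in Saa2 and a difference in what the probes bind cannot be told apart.

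**Figure D3:**
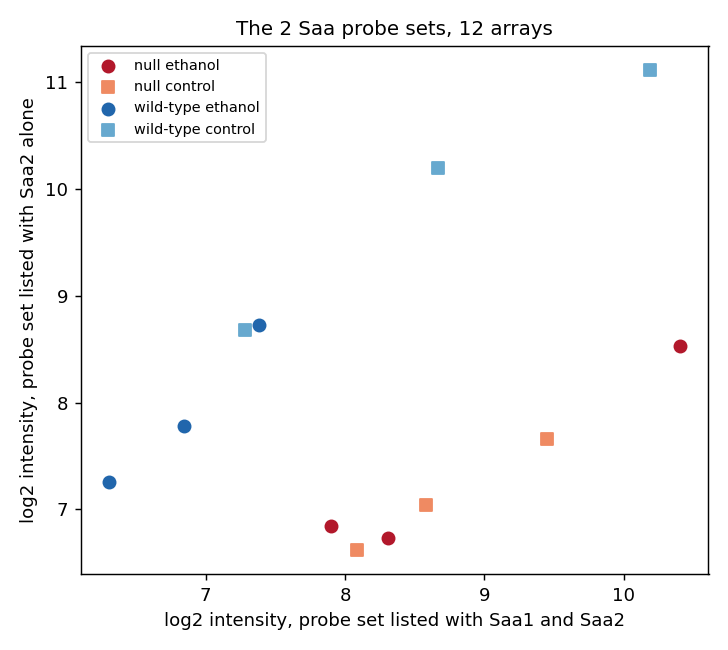
Log2 intensity of the probe set listed with Saa2 alone (vertical) against that of the probe set listed with both Saa1 and Saa2 (horizontal) on the 12 arrays, null arrays in reds and wild-type arrays in blues, circles for ethanol and squares for control diet. The 6 null arrays and the 6 wild-type arrays lie apart, with a mean offset, null minus wild-type, of -2.73 log2 units.

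The Saa genes lie side by side on mouse chromosome 7. In the gene order of RefSeq's GRCm38.p6, the nearest tested genes were taken, 10 to either side, and 3 of these 20 (15%) were called for null against wild-type averaged over diets, 1 higher and 2 lower, against 7% of all tested genes. Hps5, the next tested gene beyond Saa2 and part of a lysosome-related organelle complex, was lower in null livers, with means of 7.07 in null and 7.50 in wild-type (-0.43 ± 0.09, limma adjusted p = 0.00842). Uevld, the fifth gene on that side, had means of 6.43 in null and 7.80 in wild-type livers (-1.37 ± 0.09, limma adjusted p = 1.4e-06). Abcc6, the seventh gene on the Saa3 side and a transporter of the liver, was higher in null livers, with means of 10.33 and 9.87 in wild-type (0.46 ± 0.10, limma adjusted p = 0.0132). All of these 3 calls passed with any 1 array left out. Saal1, next to Saa3, had a difference of 0.36 ± 0.12 and did not pass (limma adjusted p = 0.0813). This look at the neighbours was chosen after values were seen. Loss of the receptor and inherited differences at this stretch between the mice cannot be told apart with these files.

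**Figure D4:**
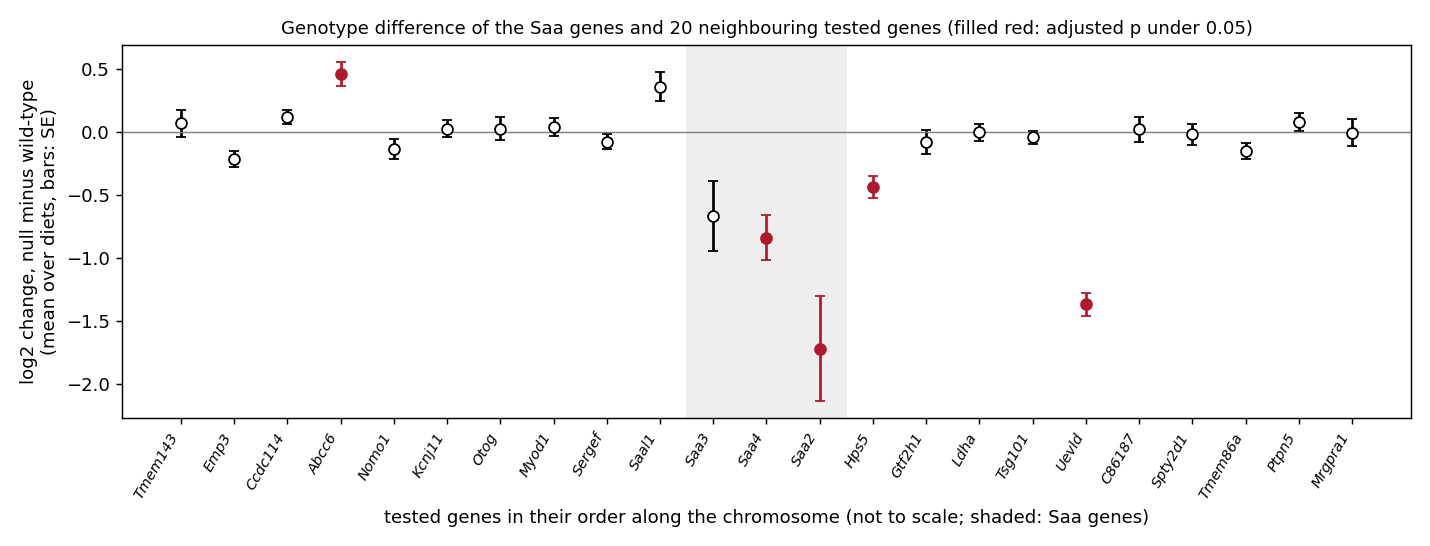
Log2 difference, null minus wild-type averaged over diets (points), with its SE (bars), for the Saa genes (shaded) and the 10 tested genes on each side in chromosome order, not to scale; filled red points had a limma adjusted p under 0.05. Saa4, Saa2, Hps5 and Uevld lie below 0 and Abcc6 above, and most of the other neighbours lie near 0.

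The members differed widely in how much replicate arrays varied. The SD within groups, pooled over the 4 groups, was 1.02 log2 units for Orm3, 0.915 for Saa2, 0.864 for Lcn2, 0.721 for Orm2, 0.602 for Saa3 and 0.381 for Saa4, against a median of 0.144 over all tested genes. A smaller SD than that of Orm3, Saa2 or Lcn2 was found for 99.9% of tested genes, and than that of Saa4 for 97.7%. The SD was 0.224 for Hp, 0.208 for Orm1 and 0.111 for Crp. Orm3 ran from 5.26 to 7.88 and was above the filter on 7 of 12 arrays, so background limits its values. The other 8 members were above it on all 12 arrays.

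**Figure D5:**
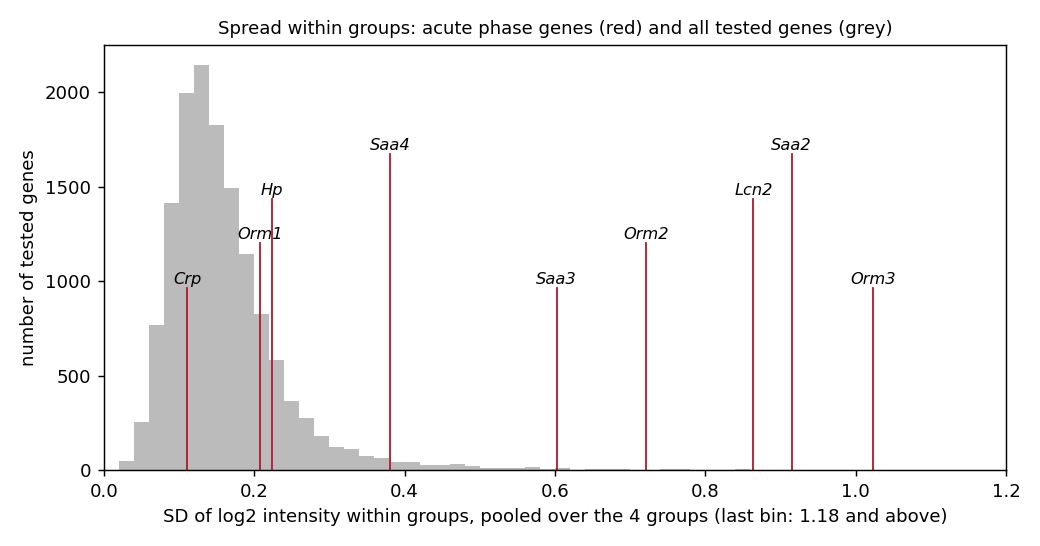
Number of tested genes (vertical) by SD of log2 intensity within groups, pooled over the 4 groups (horizontal), with the 9 acute phase genes as red lines. Orm3, Saa2 and Lcn2 lie at 1.02, 0.915 and 0.864, in the far tail of the grey distribution, and Crp, at 0.111, lies below its middle at 0.144.

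High arrays tended to be high in several members at a time. Wild-type control array 3 was the highest of the 12 arrays for 7 of the 9 members, the exceptions being Saa3 and Orm1. Null ethanol array 2 was the highest of the 6 null arrays for 8 of the 9, the exception being Orm3. The same counts over all tested genes are not given here, so a tendency of the whole array is not set apart. Pearson's r between 2 members, on deviations from group means, ran from 0.24 (Saa3 and Orm3) to 0.90 (Saa2 and Crp). When each member was put on a common scale (deviation from its mean over the 12 arrays in units of its SD) and the 9 were averaged, array scores were -0.46, 0.67 and -0.93 for null ethanol, 0.27, -0.96 and -0.63 for null control, -0.32, 0.01 and 0.60 for wild-type ethanol and -0.51, 0.65 and 1.61 for wild-type control. The scores of all 4 groups overlapped, and the highest was that of wild-type control array 3. What set single mice or samples apart within a group was not tested.

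The genes whose levels followed the members most closely over the 12 arrays were found by Pearson's r among named tested genes, with group differences included and with no test. Nearest to Saa2 was Atp11a, a phospholipid flippase (r = 0.914), followed by Prg4, which encodes the lubricating proteoglycan lubricin (0.881). Nearest to Saa3 was Iigp1, an interferon-inducible GTPase (0.926), and nearest to Saa4 was Psmc6, a proteasome subunit (0.915). Wif1, a secreted inhibitor of Wnt ligands, was nearest to Orm1 (0.862), Cend1 to Orm2 (0.884), Ldhd, a lactate dehydrogenase, to Orm3 (0.875), Pla2g10, a secreted phospholipase, to Lcn2 (0.879), Ubqln1 to Hp (0.913) and P2rx1, a purinergic channel, to Crp (0.856). Members appeared in each other's lists once, Saa2 being the second nearest to Crp (0.828). Fibrinogen beta (Fgb) was the third nearest to Hp (0.907), and nearest to the average score of the 9 were Prg4 (0.871), Ldhd (0.870), Cend1 and Fgl1 (0.861 each).

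Other positive acute phase proteins were mostly level between the groups. Of 23 listed genes, 21 were on the array with a probe set of their own, and all 21 passed the filter. With limma 0 of the 21 were called for ethanol in either genotype (2 in wild-type and 1 in null livers had an unadjusted p under 0.05). Of all tested genes 0.0927% were called for ethanol in wild-type and 0.00713% in null livers. For null against wild-type 1 was called lower on the control diet, 0 on the ethanol diet and 0 averaged over diets. Of all tested genes 1.89% were called lower on the control diet. In either direction 1.79% were called on the ethanol diet and 7% averaged over diets. On the ethanol diet 3 of the 21 had an unadjusted p under 0.05, against 16.2% of all tested genes, and averaged over diets 4 had. The called gene was Fgl1, a fibrinogen-like hepatokine that rises in the acute phase, with 11.03, 10.79 and 10.93 on the null control arrays and 11.60, 11.69 and 12.65 on the wild-type control arrays. These did not overlap, and the difference was -1.07 ± 0.27 (limma adjusted p = 0.0409), which passed in 4 of 12 fits that left out an array and failed, among others, without wild-type control array 3. Steap4, a metalloreductase induced by interleukin 6, had a difference of -0.55 ± 0.20 with ethanol in wild-type livers that did not pass (limma adjusted p = 0.238). The median over the 21 for null against wild-type was -0.04 on the control diet and 0.04 on the ethanol diet, against 0.01 and -0.02 over all tested genes. Of the negative acute phase proteins, which fall in inflammation, 10 of 12 listed genes were tested. Igfals, the acid-labile subunit that binds insulin-like growth factors in plasma, was called lower in null livers on the ethanol diet (-0.67 ± 0.14, limma adjusted p = 0.0245) and averaged over diets (-0.40 ± 0.10, adjusted p = 0.0258), and the other 9 were not called in any comparison. Those calls of Igfals passed in 7 and 9 of 12 fits that left out an array. Among all tested genes 1.79% were called in either direction on the ethanol diet, and 3.98% were called lower averaged over diets.

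Of the cytokine ligands that start the response, Il6, Il11 and Il22 stayed below the filter, Il6 between 3.60 and 4.32 on all arrays, and 7 of 10 were tested. With limma 0 of the 7 were called in any of the 7 comparisons, and the number with an unadjusted p under 0.05 was at most 2 in any of them. Of all tested genes 0.00713% to 7% were called, depending on the comparison. Among the 10 cytokine receptors, all tested, Lifr, the receptor chain of leukaemia inhibitory factor and oncostatin-type cytokines, was lower in null livers. It averaged 10.94 ± 0.09 on the null control arrays and 11.50 ± 0.10 on the wild-type control arrays (SD, n = 3 each), without overlap and with a difference of -0.56 ± 0.13 (limma adjusted p = 0.0267) that passed in 8 of 12 fits leaving out an array. On the ethanol diet the difference was -0.49 ± 0.13 (adjusted p = 0.0787), and averaged over diets it was -0.53 ± 0.09 (adjusted p = 0.00394), with all 6 null arrays below all 6 wild-type arrays and a call with any 1 array left out. Il1r1, the signalling receptor of interleukin 1, had 10.53, 11.13 and 9.70 with ethanol and 9.69, 9.06 and 9.37 on control diet in null livers, a difference of 1.08 ± 0.33 that did not pass (limma adjusted p = 0.293). Il6ra, the interleukin 6 receptor, had differences of 0.68 ± 0.26 in null and 0.55 ± 0.26 in wild-type livers with ethanol, and neither passed. Of the 10 receptors only Lifr was called in any comparison. Among all tested genes 1.89% were called lower in null livers on the control diet and 3.98% averaged over diets.

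Among the signal transducers and transcription factors 14 of 17 listed genes were tested, and 1 was called, on the control diet. In that comparison 5.1% of all tested genes were called in either direction. Creb3l3, a membrane-bound hepatocyte transcription factor that activates Crp and other acute phase genes, was higher in null livers on the control diet, with 11.56, 11.64 and 11.78 against 11.22, 11.38 and 11.39 on the wild-type control arrays (0.33 ± 0.09, limma adjusted p = 0.0439). The call held in 3 of 12 fits that left out an array. Stat3, the main transducer of interleukin 6, differed by -0.37 ± 0.16 on the control diet (limma adjusted p = 0.203), and Cebpb, a C/EBP factor of the response, by 0.51 ± 0.16 averaged over diets (adjusted p = 0.0795). Of 9 tested feedback genes, averaged over diets, 2 were called higher and 1 lower in null livers, against 7% of all tested genes called in either direction. For ethanol 0 were called in either genotype (1, Dusp1 in null livers, had an unadjusted p under 0.05 with limma). Of all tested genes 0.0927% were called for ethanol in wild-type and 0.00713% in null livers. Dusp1, a phosphatase that switches off stress kinases, averaged 11.02 ± 0.39 on the null control arrays and 9.12 ± 0.11 on the wild-type control arrays (SD, n = 3 each), without overlap and with a difference of 1.89 ± 0.23 (limma adjusted p = 0.000541). On the ethanol diet Dusp1 differed by 0.53 ± 0.23, with overlap, and was not called (limma adjusted p = 0.275). Averaged over diets it differed by 1.21 ± 0.16 (limma adjusted p = 0.000681). Nfkbia, the inhibitor of NF-kB, was higher in null livers averaged over diets (0.37 ± 0.08, adjusted p = 0.0149), and Bcl3, another regulator of NF-kB, was lower (-0.29 ± 0.08, adjusted p = 0.0358). The calls of Dusp1 and Nfkbia held with any 1 array left out, and that of Bcl3 held in 2 of 12 such fits. Socs3, the feedback inhibitor of interleukin 6 signalling, had an averaged difference of -0.25 with an adjusted p = 0.372.

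Among 9 tested genes for the receptors and clearance of acute phase proteins, Scarb1, a receptor of high-density lipoprotein, was called higher in null livers on the control diet (0.36 ± 0.09, limma adjusted p = 0.0306), in 8 of 12 fits that left out an array. Averaged over diets Cd163, the haptoglobin-haemoglobin scavenger receptor of macrophages, was lower in null livers (-0.56 ± 0.15, adjusted p = 0.0421), as was Hmox1, which breaks down the haem taken up with it (-0.38 ± 0.10, adjusted p = 0.0452). Each of these last calls held in 3 of 12 fits that left out an array. On the control diet 1 of the 9 was called, against 5.1% of all tested genes called in either direction. Averaged over diets 2 of the 9 were called lower, against 3.98% of all tested genes called lower.

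Markers of macrophages and Kupffer cells lay lower in null livers on both diets. On the control diet 5 of the 10 tested markers were called lower and 0 higher, against 1.89% of all tested genes called lower. Their median was -0.67, against 0.01 over all tested genes. The list mean was 7.25 to 7.52 log2 units on null control arrays and 7.76 to 8.16 on wild-type control arrays. On the ethanol diet 1 was called lower, against 1.79% of all tested genes called in either direction. All 10 were negative and 9 had an unadjusted p under 0.05 with limma, against 16.2% of tested genes in either direction. The median was -0.59, against -0.02 over all tested genes. The list mean was 7.43 to 7.90 on null ethanol arrays and 8.05 to 8.22 on wild-type ethanol arrays. Averaged over diets 9 of 10 were called lower, with a median of -0.54, against 3.98% of all tested genes called lower and a median of -0.0005. This count of markers was 5 to 10 with 1 array left out, while those on the control and the ethanol diet were 1 to 6 and 0 to 3. Cd5l, secreted by Kupffer cells, differed by -0.94 ± 0.12 and Adgre1, a surface receptor of mature macrophages, by -0.85 ± 0.15, and Ccr2 and Ly6c2, markers of recruited monocytes, were below the filter. Whether macrophages have a part in the Saa differences was not tested, and in bulk liver RNA fewer cells of a type and less RNA per cell cannot be told apart.

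Neutrophils are a main source of Lcn2 outside hepatocytes, and their defining markers were dim. Of 12 neutrophil markers 9 stayed below the filter, S100a8, S100a9, Mpo, Ltf, Ngp, Camp, Ly6g, Retnlg and Mmp8, with S100a8 between 3.54 and 3.94 on all arrays. The list mean was 4.95 to 5.04 on null ethanol, 4.88 to 4.96 on null control, 4.97 to 5.05 on wild-type ethanol and 4.94 to 5.14 on wild-type control arrays, and with limma 0 of the 3 tested markers were called in any comparison. At most 1 of the 3 had an unadjusted p under 0.05 in any comparison. Hepatocyte markers gave 0 calls among 10 tested, stellate cell markers 0 among 7 and cholangiocyte markers 0 among 3 in every comparison, with at most 3 genes of a list at an unadjusted p under 0.05. Of all tested genes 0.00713% to 7% were called, depending on the comparison, so 0 calls in such short lists say little. Of 5 tested adipocyte markers 1, Fabp4, was called lower in null livers averaged over diets, against 3.98% of all tested genes called lower. Fabp4 did not pass in 6 of 12 fits that left out an array.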

How the data were processed

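Total RNA of 12 liver samples, 3 per genotype and diet, was hybridised to Affymetrix whole-transcript mouse arrays, 1 sample per array. Each deposited value is the intensity of a probe set on an array, made by the authors with RMA, which normalises between arrays, per the submitters' processing notes. The sources used here give no software version, genome build or probe positions. Intensity values deposited by the authors spanned 1.816 to 20156, so a linear scale, and were turned into log2 values; array medians lay between 5.55 and 5.62 log2 units. Precision is limited by how few arrays a group has.

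Of 41345 probe sets, 23521 were listed with exactly 1 gene, 1814 with several and 16010 with none. The probe set with the highest mean over the arrays stood for a gene, and 1082 genes had more than 1. Genes above the 40th percentile of gene values of the array on at least 3 arrays were tested; the percentile lay between 5.61 and 5.71. All 12 arrays entered a single model, 1 coefficient for each group, in limma 3.58.1 and R 4.3.3 (lmFit, contrasts.fit, eBayes without trend or robust option; 8 residual and 4.95 prior degrees of freedom) for 7 contrasts, with Benjamini-Hochberg adjustment over 14031 genes and a call at an adjusted p under 0.05. The median SE was 0.116 for a pair of groups, 0.082 for an average and 0.164 for the interaction. Steps were tested on simulated data.

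Promoters were read from RefSeq and aligned with Biopython 1.88. By rule the text could name all members, up to 4 genes with the smallest p in a contrast from each list, and the 3 genes nearest to each member (5 to their average) by Pearson's r; predicted genes were not named. Chosen outside this rule, with values seen, were the Saa neighbours, Ppard, Alb, Socs3, the dim cytokines and the cell type markers. The members, the 7 pathway lists and the 6 marker lists were chosen with earlier results of these data known. Alternatives were the filter, the eBayes options, the scaling, the samples in the fit, the mean of a gene's probe sets, the replicate number as a block, and each array left out.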

Additional observations from a re-analysis of the deposited data

Results flagged for a closer look

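In Saa4 the ethanol arrays lay to opposite sides of their control means in the genotypes: all 3 null ethanol arrays (11.93, 12.09 and 11.31) lay above the null control mean of 11.17, and all 3 wild-type ethanol arrays (12.20, 12.15 and 12.29) lay below the wild-type control mean of 12.41. Single arrays of the 2 diets overlapped in both genotypes, with 11.81 on null control array 1 and 12.20 on wild-type control array 1. The ethanol difference in wild-type livers, -0.20 ± 0.25, lay within its standard error. The ethanol difference in null minus that in wild-type livers was 0.80 ± 0.36 and did not pass the limma test of the interaction (adjusted p = 0.317, and 0.186 to 0.541 over the alternatives). Groups of 3 arrays were too small for a test of single arrays that stand apart.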

How the results depend on the processing

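With 3 arrays per group and a large spread in the inducible members, only large differences could pass. The number of members called was 2 for null against wild-type on the control diet and 2 averaged over diets. It was 1 in both (Saa4) with trend and robust options, where Saa2 had limma adjusted p-values of 0.0510 and 0.0806, and 1 (Saa2) on the control diet with only the groups compared. With 1 array left out it was 0 to 3 on the control diet and 1 to 3 averaged over diets, the 3 including Orm2 without wild-type control array 1 (-0.79 averaged, adjusted p = 0.0256). In the other 5 contrasts it was 0 under every alternative tried. In the 2 comparisons with calls, 28 of 39 alternative counts stayed within 1.5 times the main count and the others were lower.

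With the replicate number as a replicate block the counts were 2 and 2 for these genotype comparisons and 0 for the others. The labels give the numbers no meaning, deviations of same-numbered arrays correlated at -0.15 to 0.19, and 2 of 12 arrays correlated best with their own number, so the numbers do not pair the samples. All tested genes called on the control diet numbered 715, but 393 with no filter, 226 with only the groups compared and 193 to 1306 with 1 array left out.

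Read through the probe set shared with Saa1, an alternative added after the values were seen, the Saa2 difference turned from negative to 2.03 for null against wild-type on the ethanol diet and 1.01 averaged over diets. On the control diet it was -0.01 ± 0.76 in place of -2.89 ± 0.59. Read this way, neither the control diet nor the averaged difference was called (limma adjusted p = 0.999 and 0.429). Signs near 0 turned for Orm3 in null livers with ethanol (-0.00125 after quantile normalisation, -0.0303 after centring) and for Hp with ethanol averaged (-0.00532 after centring). Values whose sign turned when 1 array was left out, none of them called, ranged as follows. For ethanol in null livers the ranges were Crp -0.10 to 0.0477, Hp -0.17 to 0.10, Lcn2 -0.56 to 0.59, Orm3 -0.41 to 0.74, Saa2 -0.32 to 0.58 and Saa3 -0.22 to 0.52. For ethanol in wild-type livers the ranges were Hp -0.065 to 0.25 and Orm3 -0.76 to 0.49. For the interaction the ranges were Crp -0.0364 to 0.11, Hp -0.32 to 0.0245, Orm1 -0.23 to 0.0571 and Orm3 -0.48 to 0.97. For ethanol averaged the ranges were Hp -0.0666 to 0.0901, Orm2 -0.55 to 0.0522 and Orm3 -0.38 to 0.25. For null against wild-type averaged the ranges were Hp -0.13 to 0.0271, Lcn2 -0.31 to 0.19 and Orm3 -0.60 to 0.12. For null against wild-type on control diet the ranges were Hp -0.13 to 0.19, Orm1 -0.19 to 0.0933 and Orm3 -1.09 to 0.36. For null against wild-type on ethanol diet the ranges were Hp -0.23 to 0.0373, Orm2 -0.32 to 0.19, Orm3 -0.48 to 0.27 and Saa3 -0.67 to 0.068. The cause of these turns was not tested.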
